A study of Mus musculus with 10 samples.

Results

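The matrix metalloproteinases (MMPs), the ADAMTS and ADAMTS-like proteins and the tissue inhibitors of metalloproteinases (TIMPs) were followed in melanomas with and without *Mir25*. Members were taken by gene symbol alone, though the families were chosen with earlier results of these data known. The symbols matched 51 of the 55401 gene rows, namely 23 MMPs, 19 ADAMTS, 5 ADAMTS-like and 4 TIMP genes. Of these, 35 passed edgeR's filter on low counts, and among the other 16 *Mmp7* had no read in any tumor.

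Bulk RNA-seq was made from 10 subcutaneous tumors of B16F10, a mouse melanoma line of C57BL/6 origin, collected on day 15. In 5 tumors the injected cells carried a CRISPR knockout of *Mir25* (*Mir25* KO), and in 5 they carried a non-targeting control guide (NTC). Both sets of cells were made with lentiCRISPR v2, and 3 sgRNAs against *Mir25* were designed. The labels do not say which guide or how many clones gave the KO tumors. The hosts were female C57BL/6J mice of 9 to 12 weeks with their own intact *Mir25*, so only the tumor cells were edited. Every mouse of both groups received Comb, which joins GVAX (irradiated B16 cells that secrete GM-CSF) on days 1 and 4 with 10 mg/kg of αPD-1 (days 6, 9 and 12), so the data hold no untreated tumor.

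MMPs are zinc-dependent proteases that cut collagens, elastin and other proteins outside the cell, and most are secreted as inactive precursors by stromal cells and leukocytes as well as by tumor cells. ADAMTS enzymes cut proteoglycans or trim procollagens, ADAMTS-like proteins resemble them but lack the protease domain, and TIMPs block the active site of both enzyme groups. In tumors these genes are known for remodeling the matrix around vessels, fibroblasts and infiltrating leukocytes.

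Each tumor gave 11896643 to 28682130 reads on genes. NTC tumor 1 was the shallowest at 11896643, against 23243707 to 28682130 in the other 9, had the most rows with a read (33193, against 22192 to 25435) and a TMM factor of 0.63, so the fits were made with and without it. Its share of reads outside annotated genes was 42.9%, against 17.5% to 28.2% in the others. The *Mir25* row held 0 reads in all 10 tumors of both groups, which leaves the knockout unchecked, since libraries of this kind do not capture a mature miRNA. All 7 melanoma cell markers were detected, with summed levels of 11774 to 19339 CPM (reads scaled to a common library size) in KO and 11282 to 21329 CPM in NTC tumors. Across all genes, edgeR's quasi-likelihood test called 1 gene higher and 2 lower in KO at an adjusted p under 0.05 and an absolute log2 fold change above 1.

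No member of the 4 families was called between KO and NTC over the 10 tumors by edgeR's quasi-likelihood test, where 0.0190% of all 15821 rows tested were called. DESeq2 on the same tumors also called no member, where 0.609% of rows were called, with 2 higher and 2 lower at an unadjusted p under 0.05 (4.66% and 5.46% of rows). At an unadjusted p under 0.05, 1 member was higher (*Adamts14*) and 2 were lower (*Adamts1* and *Adamtsl2*) in KO, where 3.99% and 4.85% of all rows passed in each direction. Without NTC tumor 1, edgeR's test again called no member, where 0.106% of all rows were called, while 12 members were higher and 2 lower at an unadjusted p under 0.05. Over all rows those shares were 12.0% and 8.10%. Log2 fold changes were above 0 in 25 of 35 members over 10 tumors (51.3% of rows) and in 29 of 35 over 9 (48.1% of rows). The median log2 fold change of the 35 members moved from 0.25 to 0.66 when that tumor was left out, and that of all rows from 0.0076 to -0.02.

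**Figure D1:**
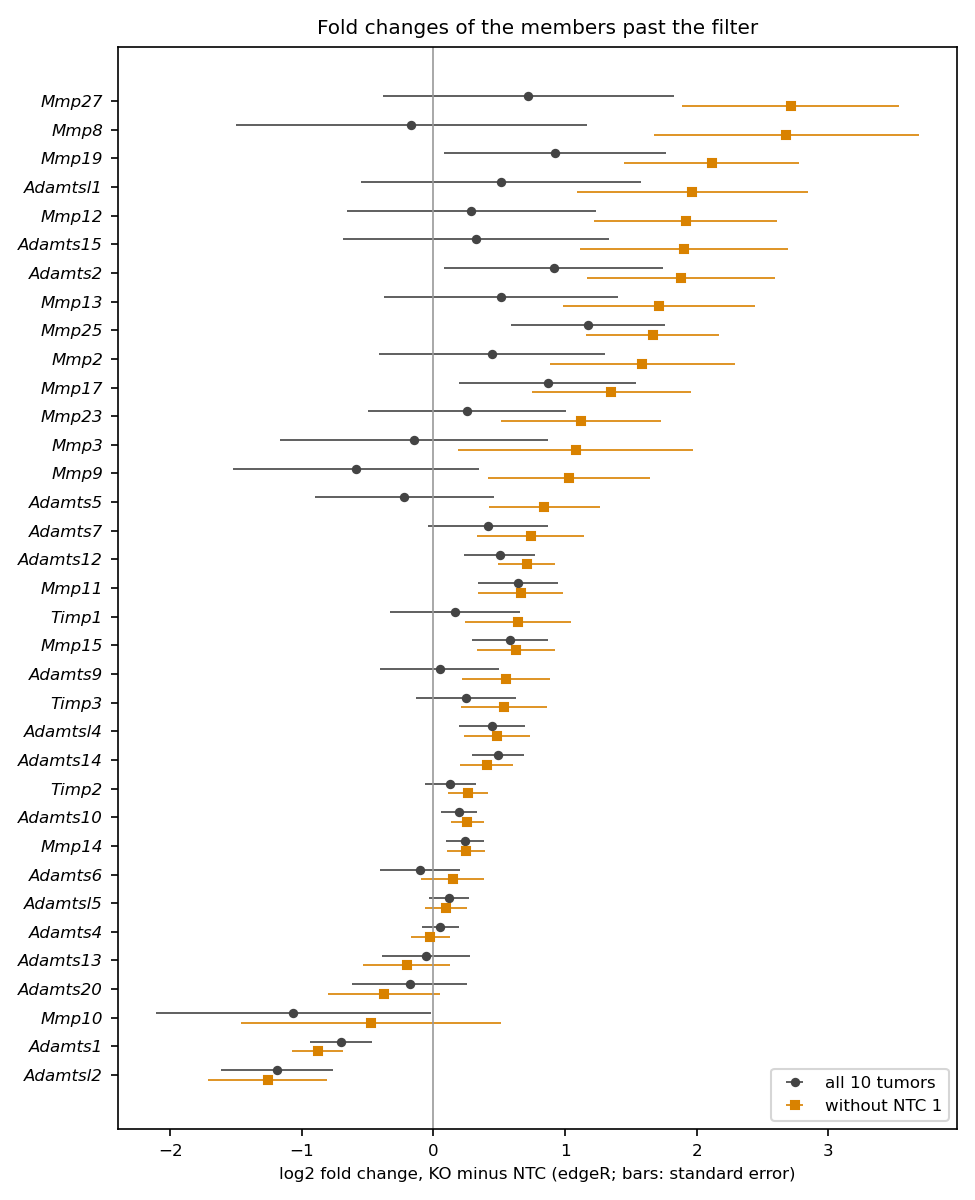
Log2 fold change (KO minus NTC, edgeR) of the 35 members past the filter, with all 10 tumors (grey circles) and without NTC tumor 1 (orange squares). Bars are standard errors. *Adamtsl2*, *Adamts1* and *Mmp10* lie lowest in both fits, and *Mmp8* moves from -0.17 to 2.68 when NTC tumor 1 is left out.

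Since the edited gene encodes a miRNA, the members were searched for sites that pair with it. The mature strand mmu-miR-25-3p (RefSeq, GRCm38.p6, chr5:138165332-138165353, minus strand) is shown with its seed, bases 2 to 8, in capitals. A 3′ UTR with the reverse complement of the seed, GTGCAAT, was found in 3 of 50 members with an annotated 3′ UTR (6.0%), against 6.56% of 20997 genes. The search read the transcript strand only. All 3 sites were 8mers (GTGCAATA, in capitals below), a form held by 2.28% of all genes, and each is shown on its transcript strand with the GRCm38 position of its first 7 letters, GTGCAAT.
mmu-miR-25-3p: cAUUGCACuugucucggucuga
Adamts12, chr15:11348659-11348665: ctggcttcccaGTGCAATActttttgagag
Adamtsl1, chr4:86427796-86427802: tgtattaaaaaGTGCAATAttagtaattgt
Adamtsl3, chr7:82614178-82614184: atgactccaagGTGCAATAttttattttgt
A match describes letters in a 3′ UTR and was not tested as a binding site. Other miRNAs of the miR-25 family share this seed, so a match is not particular to miR-25. The study reported higher levels of several of them in untreated *Mir25* KO B16 cells.

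*Adamts12*, a secreted protease that cuts cartilage oligomeric matrix protein, had 34.0, 28.4, 23.7, 21.8 and 37.7 CPM in KO tumors 1 to 5 and 33.5, 11.5, 21.4, 15.3 and 21.5 CPM in NTC tumors 1 to 5. All 5 KO values were above those of NTC tumors 2 to 5, and NTC tumor 1 lay among the KO values. The log2 fold change was 0.51 (SE 0.27, adjusted p = 0.631, edgeR's quasi-likelihood test) and 0.71 (SE 0.22, adjusted p = 0.170) without NTC tumor 1. With the fibroblast score (the mean log2 CPM of 7 fibroblast markers) in the fit it was 0.16 (SE 0.11). *Adamtsl1* had 1.59 to 6.63 CPM in KO, and 11.0, 0, 2.08, 0.285 and 1.63 CPM in NTC tumors 1 to 5, so the groups overlapped. *Adamtsl3* did not pass the filter on low counts.

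*Adamts1*, a secreted protease that cuts the proteoglycans versican and aggrecan, had the lowest unadjusted p of the 35 members. It had 103, 131, 120, 159 and 75.3 CPM in KO tumors 1 to 5 and 109, 223, 183, 235 and 207 CPM in NTC tumors 1 to 5. The 5 KO tumors all lay below NTC tumors 2 to 5, and NTC tumor 1 fell inside the KO range. The means were 118 ± 31.2 CPM in KO and 191 ± 50.0 CPM in NTC (SD, n = 5 each). This difference of -0.70 on the log2 scale (SE 0.23, unadjusted p = 0.013) missed the threshold after Benjamini-Hochberg adjustment in edgeR's quasi-likelihood test (adjusted p = 0.393). Without NTC tumor 1 it was -0.88 (SE 0.19, adjusted p = 0.109). DESeq2 on those 9 tumors without a filter gave -0.86 with an adjusted p of 0.00538, which is short of the fold threshold.

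*Adamts1* was high where stromal markers were lowest and low where they were highest. The summed fibroblast markers were lowest in NTC tumors 2 (57.7 CPM) and 4 (247 CPM), which had 223 and 235 CPM of *Adamts1*, and were highest in KO tumor 5 (5375 CPM) and NTC tumor 1 (6050 CPM), which had 75.3 and 109 CPM. Between these ends, NTC tumors 3 and 5, with 1638 and 1088 CPM of the markers, had 183 and 207 CPM of *Adamts1*. KO tumors 1 to 4, with 2684, 2655, 1234 and 926 CPM of the markers, had 103, 131, 120 and 159 CPM. The order was not strict, since KO tumor 2 had more *Adamts1* than KO tumor 3 at more marker RNA. With the fibroblast score in the fit, the difference was -0.40 (SE 0.17, adjusted p = 0.445 in edgeR). With the leukocyte score it was also -0.40 (SE 0.17, adjusted p = 0.325 in edgeR). In bulk tumors, fewer cells of a type and less RNA per cell cannot be told apart.

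*Adamts4*, which cuts aggrecan as *Adamts1* does, varied little. It had 65.8, 47.4, 62.2, 59.9 and 46.5 CPM in KO tumors 1 to 5 and 47.0, 57.7, 63.5, 44.0 and 59.0 CPM in NTC tumors 1 to 5. The groups overlapped, with a log2 fold change of 0.054 (SE 0.14, adjusted p = 0.927, edgeR). Of the 7 proteoglycan-cutting members, 6 passed the filter, and 3 of these 6 had a log2 fold change above 0.

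*Adamtsl2*, a secreted glycoprotein that binds fibrillin microfibrils, had the most negative log2 fold change among the 35 members. Its levels were 1.60, 2.54, 1.95, 3.17 and 0.489 CPM in KO tumors 1 to 5 and 3.91, 5.29, 2.84, 6.30 and 3.95 CPM in NTC tumors 1 to 5. KO tumor 4 and NTC tumor 3 crossed, and every other KO value was below every NTC value. It differed by -1.19 on the log2 scale (SE 0.42, unadjusted p = 0.018, adjusted p = 0.434, edgeR) and -1.26 (SE 0.45, adjusted p = 0.195) without NTC tumor 1. *Adamtsl4* and *Adamtsl5* were the ADAMTS-like members with the highest levels per kilobase of exon, at 2.71 ± 0.85 and 2.03 ± 0.29 CPM per kilobase (SD, n = 10), with log2 fold changes of 0.45 (SE 0.25) and 0.12 (SE 0.15).

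*Adamts14* and *Adamts2* remove the N-terminal propeptide of procollagens. *Adamts14* had 36.2, 20.8, 23.2, 20.5 and 22.4 CPM in KO tumors 1 to 5 and 14.7, 14.9, 21.9, 14.8 and 21.1 CPM in NTC tumors 1 to 5. KO tumor 1 stood above the rest, and NTC tumors 3 and 5 lay within the KO range. On the log2 scale the difference was 0.49 (SE 0.19, unadjusted p = 0.029, adjusted p = 0.499, edgeR). It was 0.31 without KO tumor 1 (unadjusted p = 0.078, edgeR) and 0.40 without NTC tumor 1 (unadjusted p = 0.070, edgeR). *Adamts2* had 31.3, 38.9, 15.5, 9.37 and 58.6 CPM in KO and 51.1, 1.44, 13.1, 3.17 and 14.7 CPM in NTC, a range of 40.6-fold over the 10 tumors. Its log2 fold change was 0.91 (SE 0.83), with 1.88 (unadjusted p = 0.025, adjusted p = 0.205, edgeR) without NTC tumor 1 and 0.55 without KO tumor 5. With the fibroblast score in the fit it was 0.21 (SE 0.19). *Adamts10*, a protease tied to fibrillin microfibrils, stayed within 13.6 to 21.0 CPM in all tumors.

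**Figure D2:**
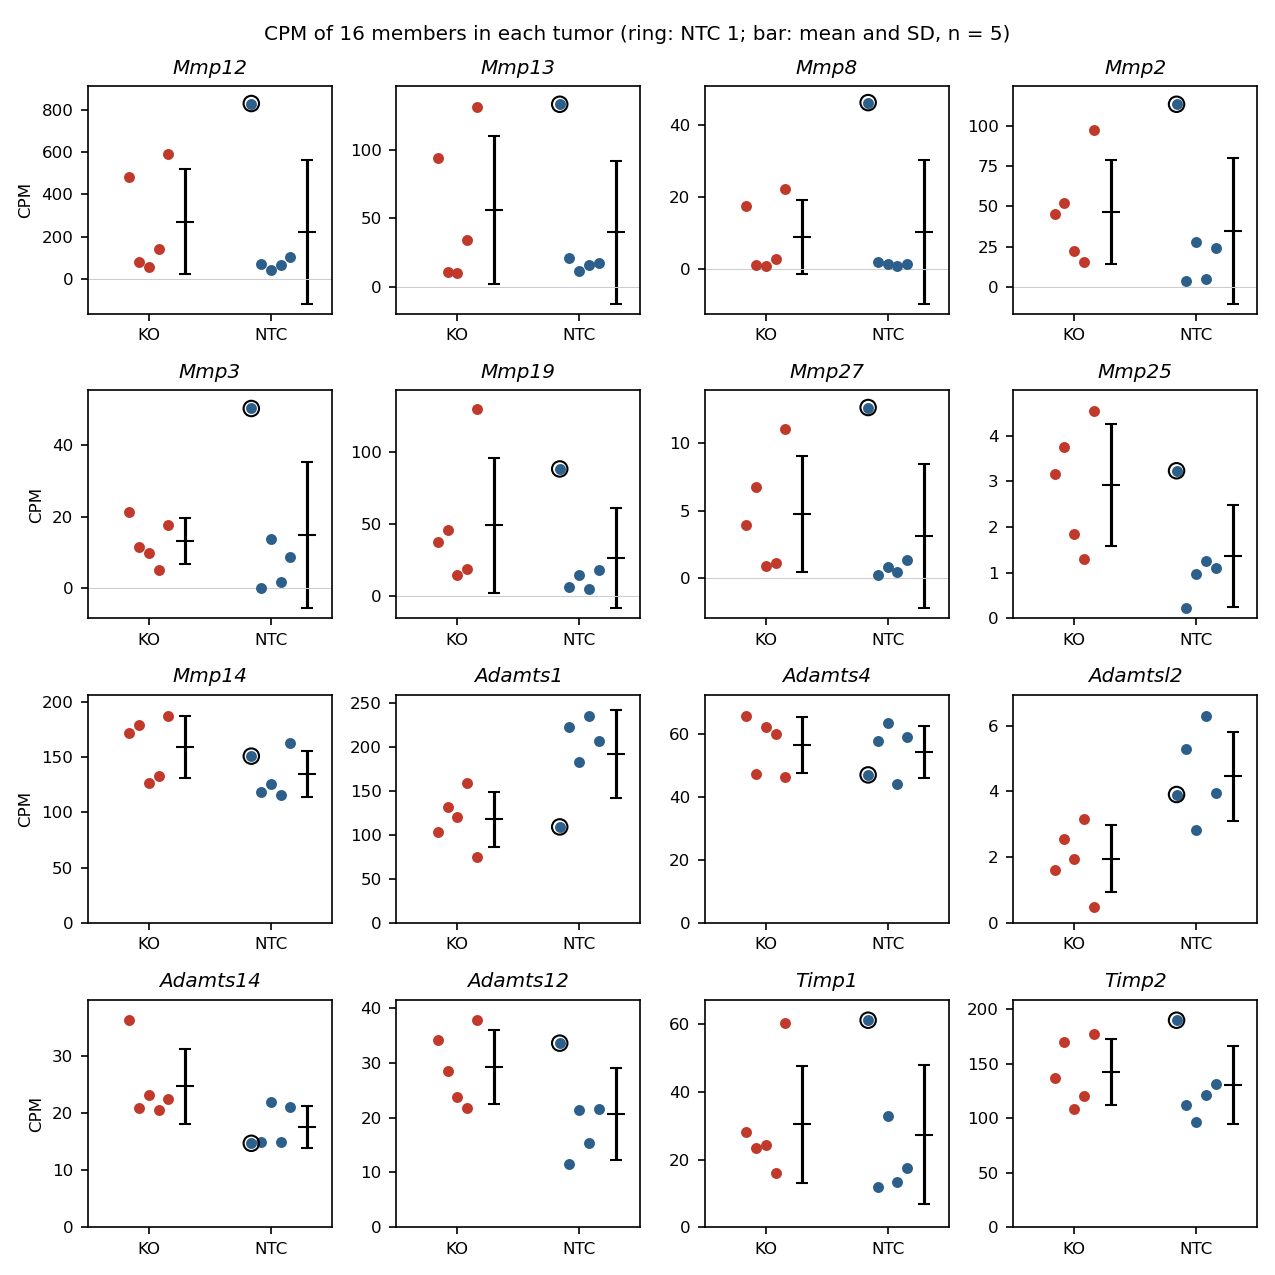
TMM-normalised CPM (linear axes) of 16 members in each KO (red) and NTC (blue) tumor, with NTC tumor 1 ringed. Bars are the mean and SD of 5 tumors. *Adamts1* and *Adamtsl2* sit lower in KO, while *Mmp12*, *Mmp13* and *Mmp8* have KO tumors 1 and 5 and NTC tumor 1 far above the other 7.

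Among the MMPs, *Mmp12*, the macrophage elastase, had the widest span of CPM. It reached 482, 78.5, 56.6, 142 and 593 CPM in KO tumors 1 to 5 and 832, 68.4, 41.0, 65.5 and 103 CPM in NTC tumors 1 to 5. Thus KO tumors 1 and 5 and NTC tumor 1 were high and the other 7 lay between 41.0 and 142 CPM. The KO mean was 270 ± 249 and the NTC mean 222 ± 342 CPM (SD, n = 5 each). The log2 fold change was 0.29 (SE 0.95, adjusted p = 0.946, edgeR) and 1.92 (SE 0.69, adjusted p = 0.196) without NTC tumor 1.

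The collagenases *Mmp13* and *Mmp8*, which open the triple helix of fibrillar collagens, were high in the same 3 tumors. *Mmp13* had 94.0, 11.1, 9.80, 34.0 and 131 CPM in KO tumors 1 to 5 and 133, 21.0, 11.4, 15.9 and 17.8 CPM in NTC tumors 1 to 5. *Mmp8*, the neutrophil collagenase, had 17.3, 0.987, 0.707, 2.81 and 22.3 CPM in KO and 46.2, 1.90, 1.17, 0.813 and 1.39 CPM in NTC. In both genes KO tumor 4 came next after those 3, and KO tumors 2 and 3 did not exceed the range of NTC tumors 2 to 5. The log2 fold change of *Mmp13* was 0.51 (SE 0.89) over 10 tumors and 1.72 (SE 0.73) over 9, and that of *Mmp8* was -0.17 (SE 1.33) and 2.68 (SE 1.01), with adjusted p of 0.233 and 0.204 over 9 tumors in edgeR's quasi-likelihood test.

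Leukocyte markers were high in the same 3 tumors and also in KO tumor 2, where these genes were not. The 6 macrophage markers summed to 1459, 2905, 857, 746 and 3172 CPM in KO tumors 1 to 5 and to 2879, 277, 806, 243 and 1012 CPM in NTC tumors 1 to 5. KO tumor 2 thus had about as much marker RNA as KO tumor 5 and NTC tumor 1, but 78.5 CPM of *Mmp12* against 593 and 832 CPM. The 6 neutrophil markers summed to 28.9, 47.7, 10.4, 9.59 and 58.0 CPM in KO and 102, 3.12, 10.6, 5.16 and 14.0 CPM in NTC, and *Ly6g*, the defining one, was at 0 to 0.135 CPM throughout. NTC tumor 1 and KO tumor 5 were thus the highest for these markers and for *Mmp8*, and KO tumor 2, next for the markers, had 0.987 CPM of it. *Csf3r* made most of the sum in KO tumors 1, 2 and 5 alike (17.1, 39.0 and 43.3 CPM). In KO tumors 1 and 2, *S100a8* was at 3.85 and 3.95 CPM, *S100a9* at 2.38 and 1.71 CPM and *Retnlg* at 4.67 and 2.96 CPM. *Cxcr2* was at 0.902, 0.0760 and 1.20 CPM in KO tumors 1, 2 and 5 and 5.12 CPM in NTC tumor 1. The markers thus differed among themselves in KO tumor 2, and the cells that made *Mmp8* were not tested. With the leukocyte score (the mean log2 CPM of 6 leukocyte markers) in the fit, the log2 fold changes of *Mmp12*, *Mmp13* and *Mmp8* were -0.19 (SE 0.62), -0.078 (SE 0.67) and -0.61 (SE 0.87). With the fibroblast score they were -0.28 (SE 0.71), -0.081 (SE 0.78) and -0.70 (SE 1.00).

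*Mmp2*, the gelatinase of fibroblasts that cuts denatured and basement membrane collagen, had 45.4, 52.1, 22.6, 15.2 and 97.5 CPM in KO tumors 1 to 5 and 113, 3.61, 27.8, 4.80 and 24.1 CPM in NTC tumors 1 to 5. Unlike *Mmp12*, it was high in KO tumor 2. It was near its lowest in NTC tumors 2 and 4, the 2 tumors with the least fibroblast and leukocyte marker RNA. Its log2 fold change was 0.45 (SE 0.86, adjusted p = 0.899, edgeR). It was -0.19 with the fibroblast score (SE 0.19) and also with the leukocyte score (SE 0.27) in the fit. The other gelatinase, *Mmp9*, had 0.722 to 3.87 CPM in KO and 0.197 to 1.34 CPM in NTC tumors 2 to 5, against 11.5 CPM in NTC tumor 1.

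The stromelysin *Mmp3*, which cuts many matrix proteins and activates other MMPs, had 21.4, 11.6, 9.97, 5.19 and 17.7 CPM in KO and 50.2, 0.0985, 13.7, 1.67 and 8.85 CPM in NTC tumors 1 to 5. NTC tumor 2 had only 3 reads of it, at a depth where 3 reads are 0.0985 CPM. The log2 fold change was -0.14 (SE 1.02) and, with the fibroblast score in the fit, -0.47 (SE 0.32). *Mmp11*, which resembles the stromelysins, had 1.84 to 5.29 CPM in KO and 1.59 to 2.71 CPM in NTC tumors, with a log2 fold change of 0.64 (SE 0.31, adjusted p = 0.594, edgeR).

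*Mmp19*, *Mmp25* and *Mmp27* were the members called by any alternative. DESeq2 without NTC tumor 1 and without a filter on low counts called them higher in KO, with log2 fold changes of 2.16 (adjusted p = 0.0121), 1.70 (adjusted p = 0.0199) and 2.77 (adjusted p = 0.00825). In that fit 49 members had at least 1 read and 39 an adjusted p. Over all rows 618 of 35130 (1.76%) were called higher, though only 18601 rows had an adjusted p and could be called. There 19 members were higher and 2 lower at an unadjusted p under 0.05, against 7.86% and 3.90% of rows. edgeR's quasi-likelihood test gave adjusted p of 0.176, 0.167 and 0.168 for them on the same 9 tumors, and 0.773, 0.611 and 0.871 on all 10.

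*Mmp19*, a secreted MMP found in macrophages and other cells, had 37.6, 45.8, 14.7, 18.5 and 129 CPM in KO and 88.1, 6.40, 14.6, 5.21 and 17.9 CPM in NTC tumors 1 to 5. *Mmp27* had 3.94, 6.76, 0.842, 1.08 and 11.1 CPM in KO and 12.7, 0.230, 0.820, 0.407 and 1.32 CPM in NTC. Both were high in KO tumors 1, 2 and 5 and in NTC tumor 1, the tumors with the most leukocyte marker RNA (1178 to 2527 CPM, against 257 to 791 CPM in the other 6). These 4 tumors also had the most fibroblast marker RNA (2655 to 6050 CPM, against 57.7 to 1638 CPM), so the values do not separate the cell types. With the leukocyte score in the fit, the log2 fold change was 0.065 (SE 0.23) for *Mmp19* and -0.19 (SE 0.33) for *Mmp27*. With the fibroblast score it was 0.18 (SE 0.43) and 0.053 (SE 0.49). Exons of *Mmp19* overlap those of *Tmem198b* on the other strand over 22.3% of their length, and whether the counting used strand is not given in the sources used here.

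*Mmp25*, a leukocyte MMP anchored to the cell membrane, had 3.16, 3.76, 1.85, 1.30 and 4.54 CPM in KO and 3.23, 0.230, 0.978, 1.26 and 1.11 CPM in NTC tumors 1 to 5. All KO values were above those of NTC tumors 2 to 5, and NTC tumor 1 lay among the KO values. The log2 fold change of 1.18 (SE 0.59) was 0.56 (SE 0.42) with the leukocyte score and 0.55 (SE 0.41) with the fibroblast score in the fit. *Adamts1*, *Adamts12* and *Mmp25* were the 3 of 35 members whose groups did not overlap over 9 tumors, where 6.35% of all rows did not overlap. Over all 10 tumors this held for 0 of 35 members, and for 2.34% of all rows.

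*Mmp14*, a membrane-bound MMP that activates the *Mmp2* precursor, was steady. It had 172, 179, 126, 133 and 187 CPM in KO and 151, 118, 126, 116 and 163 CPM in NTC tumors 1 to 5. The ranges overlapped, and the log2 fold change was 0.24 (SE 0.14, adjusted p = 0.657, edgeR), 0.25 (SE 0.14) without NTC tumor 1 and 0.093 (SE 0.13) with the fibroblast score in the fit. *Mmp23*, also tied to the membrane, ranged from 0.591 CPM in NTC tumor 2 to 9.97 CPM in NTC tumor 1, with a log2 fold change of 0.26 (SE 0.75).

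Of the 4 inhibitors, 3 passed the filter. *Timp1*, an inducible secreted inhibitor, had 28.2, 23.4, 24.2, 15.9 and 60.1 CPM in KO and 61.0, 11.8, 32.8, 13.5 and 17.6 CPM in NTC tumors 1 to 5. *Timp2*, which also helps *Mmp14* to activate the *Mmp2* precursor, had 137, 170, 108, 121 and 177 CPM in KO and 190, 112, 96.3, 122 and 132 CPM in NTC. *Timp3*, which is bound to the matrix and also blocks ADAMTS enzymes, had 71.9, 80.9, 51.6, 36.9 and 129 CPM in KO and 113, 35.0, 63.3, 39.4 and 61.1 CPM in NTC. In all 3, KO tumor 5 and NTC tumor 1 held the 2 highest values and the groups overlapped. The log2 fold changes were 0.16 (SE 0.50), 0.13 (SE 0.20) and 0.25 (SE 0.38), with adjusted p of 0.940, 0.869 and 0.870 in edgeR's quasi-likelihood test. *Timp4* had at most 1.62 CPM, in NTC tumor 1, and at most 0.135 CPM elsewhere. Exons of *Timp3* overlap *Syn3* on the other strand over 21.3% of their length.

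Levels of the members ranged widely between tumors. Of the 31 members with more than 3 reads in every tumor, the highest tumor was above the lowest by a median of 5.26-fold and by more than 10-fold in 13, against a median of 1.93-fold and 8.49% of genes above 10-fold over 14414 rows. NTC tumor 1 was the highest tumor for 18 of the 35 members and KO tumor 5 for 8. NTC tumor 2 was the lowest for 18 and NTC tumor 4 for 5. The shares of all rows that were highest or lowest in each tumor were not counted. The 3 highest tumors were KO 1, KO 5 and NTC 1 for 10 members, among them *Mmp12*, *Mmp13*, *Mmp8* and *Mmp3*, and KO 2, KO 5 and NTC 1 for another 10, among them *Mmp2*, *Mmp19*, *Mmp27* and *Adamts2*. *Adamts1* and *Adamtsl2* were the 2 members with NTC tumors 2, 4 and 5 at the top. Within 2-fold across all tumors were 5 of the 31 members, *Timp2*, *Mmp14*, *Adamts4*, *Adamts10* and *Adamtsl5*, against 52.3% of the 14414 rows.

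The 11 tested members outside the rule for naming had log2 fold changes from -1.06 (*Mmp10*, SE 1.05) to 0.87 (*Mmp17*, SE 0.67) in edgeR's fit. Among them *Adamts5*, another aggrecan-cutting protease, had 8.25 to 25.1 CPM in KO and 3.91 to 57.4 CPM in NTC tumors, with NTC tumor 1 highest and NTC tumor 2 lowest. Its log2 fold change was -0.22 (SE 0.68), and with the fibroblast score in the fit -0.69 (unadjusted p = 0.012, adjusted p = 0.329, edgeR), and it was singled out after its values were seen. Of the 15 members with reads that missed the filter, 14 were highest in NTC tumor 1, such as *Adamtsl3* with 2.56 CPM there and 0 to 0.284 CPM elsewhere. The exception was *Mmp28*, highest in KO tumor 5 with 0.845 CPM. The same count over all rows that missed the filter was not made. NTC tumor 1 had a read in 33193 rows, against 22192 to 25435 in the others, so the count cannot be read as particular to these genes.

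Stromal and immune markers differed along with these levels. The 7 fibroblast markers, all detected, summed to 926 to 5375 CPM in KO and 57.7 to 6050 CPM in NTC tumors, and the 6 macrophage markers to 746 to 3172 CPM in KO and 243 to 2879 CPM in NTC tumors. NTC tumors 2 to 5 alone gave 57.7 to 1638 CPM for fibroblasts and 243 to 1012 CPM for macrophages. With the fibroblast score in the fit, 17 of 35 members had a log2 fold change above 0 (52.9% of rows), as did 17 with the leukocyte score (51.7% of rows), against 25 without a score. At an unadjusted p under 0.05 the fibroblast score left 0 members higher and 4 lower (4.93% and 5.34% of rows), and the leukocyte score 0 higher and 5 lower (6.73% and 6.59% of rows). Skeletal muscle markers reached 172 CPM in KO tumor 4, against 0.659 to 32.2 CPM in the others, and keratinocyte markers 32.7 CPM in KO tumor 3. The part of these cells in the member levels was not tested beyond the 2 scores.

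**Figure D3:**
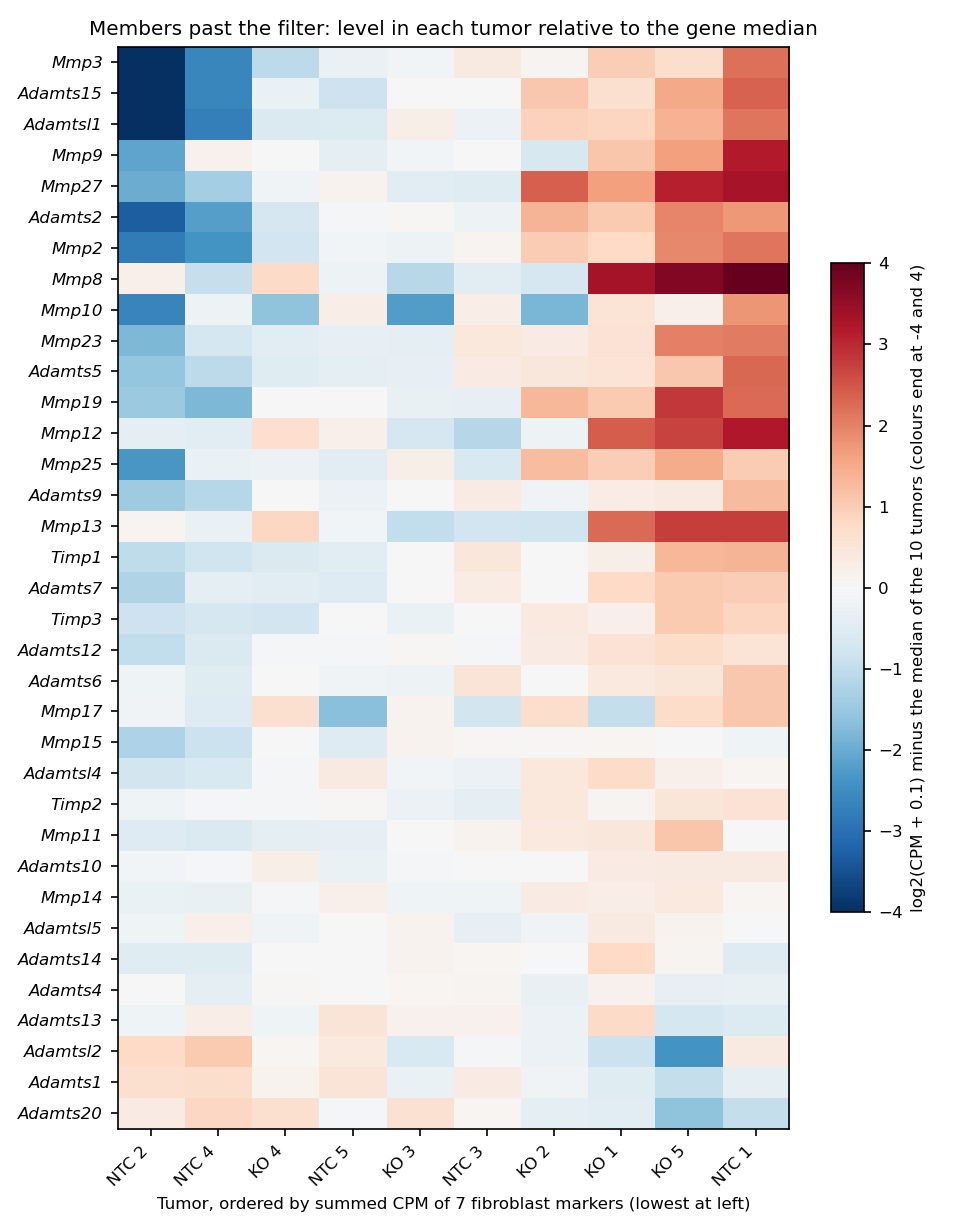
Level of the 35 members past the filter as log2(CPM + 0.1) minus the median of the 10 tumors, with tumors ordered by the summed CPM of 7 fibroblast markers from lowest (left) to highest (right). Most rows turn from blue in NTC tumors 2 and 4 to red in KO tumor 5 and NTC tumor 1, and *Adamts1*, *Adamts20* and *Adamtsl2* run the other way.

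Per kilobase of exon, *Timp2* had the highest mean level over the 10 tumors (35.1 ± 8.18 CPM per kilobase, SD), followed by *Mmp12* (34.0 ± 39.1), *Timp1* (32.5 ± 20.2), *Adamts1* (29.2 ± 10.4), *Mmp14* (24.7 ± 4.47), *Mmp13* (17.9 ± 19.1) and *Mmp2* (12.1 ± 11.2). Neighbors in that order did not differ beyond their spread, since *Timp2* was above *Mmp12* in 7 of 10 tumors and *Mmp12* above *Timp1* in 4 of 10. The leading member changed with the tumor. It was *Mmp12* in KO tumors 1 and 5 and NTC tumor 1, *Timp2* in KO tumors 2, 3 and 4, *Adamts1* in NTC tumors 2, 4 and 5, and *Timp1* in NTC tumor 3.

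Summed per family, MMP levels ran from 41.0 to 313 CPM per kilobase, TIMP levels from 46.5 to 132, and ADAMTS levels only from 47.4 to 64.4. The ADAMTS sum was 55.1, 52.8, 50.7, 56.3 and 47.4 CPM per kilobase in KO tumors 1 to 5 and 57.8, 62.8, 62.8, 63.8 and 64.4 in NTC tumors 1 to 5, so all KO tumors were below all NTC tumors. *Adamts1* made the largest part of that sum, and this comparison was made after its values were seen. In NTC tumor 1 *Adamts1* (20.6 CPM per kilobase) lay inside its KO range of 14.2 to 30.0. The order of the sums does not describe the family, since 8 of the 13 ADAMTS members tested had a log2 fold change above 0. Of single rows past the filter, 2.34% had no overlap over 10 tumors, and no such share was made for sums. The ratio of the MMP to the TIMP sum was 2.38 in KO tumor 1, 2.02 in KO tumor 5 and 2.38 in NTC tumor 1, and 0.799 to 1.34 in the other 7.

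**Figure D4:**
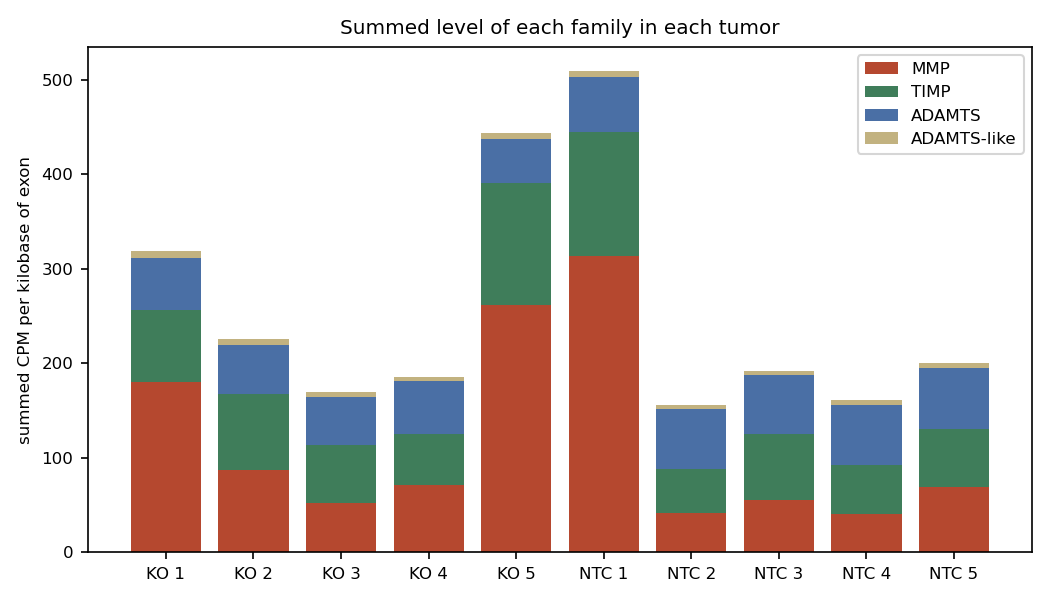
Summed CPM per kilobase of exon for the MMP, TIMP, ADAMTS and ADAMTS-like genes in each tumor, stacked on a linear axis from 0. The MMP part runs from 41.0 in NTC tumor 4 to 313 in NTC tumor 1, and the ADAMTS part stays between 47.4 and 64.4.

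Of the 23 MMP genes, 10 lie next to each other on chromosome 9, chr9:7272514-7699585 in GRCm38, with no other protein-coding gene between them. In order they are *Mmp13*, *Mmp12*, *Mmp1b*, *Mmp3*, *Mmp1a*, *Mmp10*, *Mmp8*, *Mmp27*, *Mmp20* and *Mmp7*. Their totals over 10 tumors ran from 46932 reads for *Mmp12* to 8 for *Mmp1a*, 4 for *Mmp1b*, 1 for *Mmp20* and 0 for *Mmp7*. *Mmp8* and *Mmp27* are next to each other, yet KO tumor 2 had 0.987 CPM of *Mmp8* and 6.76 CPM of *Mmp27*, against 22.3 and 11.1 CPM in KO tumor 5. *Mmp12* and *Mmp1b* share 157 exon bases on opposite strands.

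**Figure D5:**
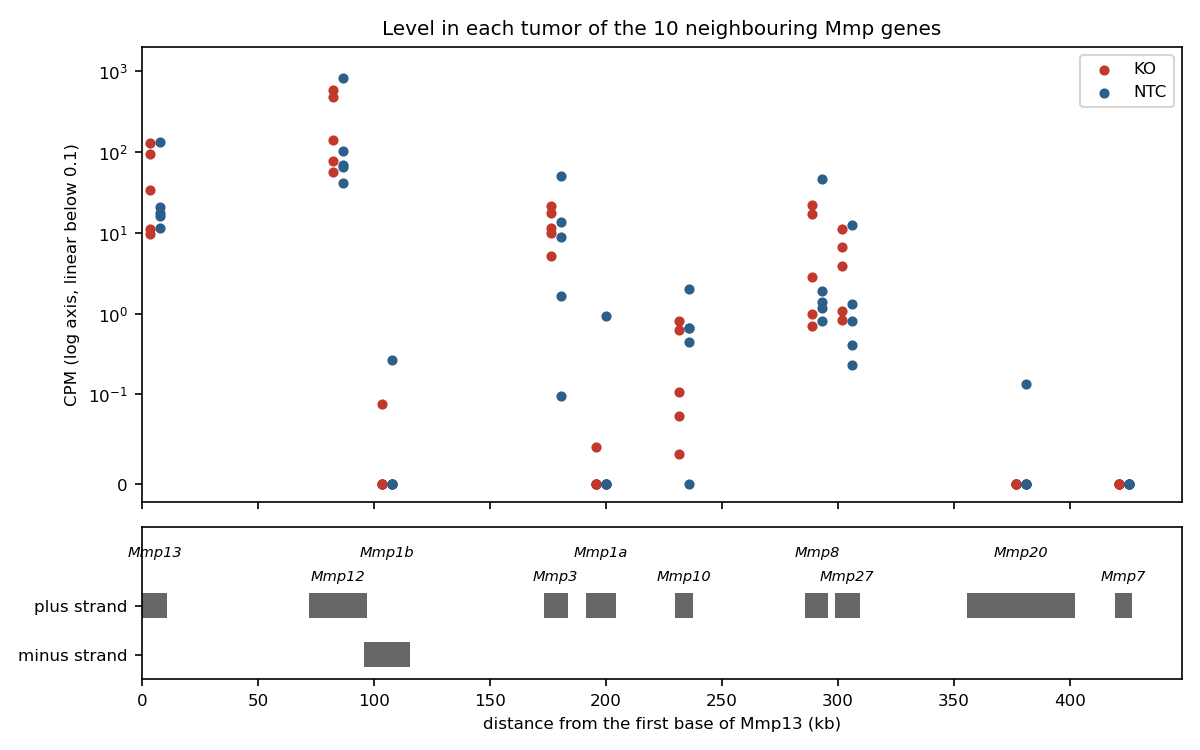
CPM in each KO (red) and NTC (blue) tumor of the 10 neighboring *Mmp* genes (log axis, linear below 0.1), above a map of the genes by strand against distance from the first base of *Mmp13* in kilobases. *Mmp12*, *Mmp13* and *Mmp8* each have 3 tumors above the rest, while *Mmp20* and *Mmp7* are at or near 0.

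The promoters of this run were read because some of its genes are known to share a response element. The AP-1 motif, searched as TGACTCA and TGAGTCA, which are each other's reverse complement and so cover both strands, was looked for from 250 bases before to 50 after each start in the RefSeq promoter table (GRCm38.p6). It was in 7 of the 36 members with an entry (19.4%), against 5.95% of 27025 genes. All 7 were among the 10 genes of the run, so the share of the members rests on 1 group of neighbors chosen for this element. *Mmp8*, *Mmp27* and *Mmp20* had no match in this window. The matches of the expressed genes and of 1 gene without reads are printed on the gene's strand, with the motif in capitals.
Mmp13, chr9:7272468-7272496: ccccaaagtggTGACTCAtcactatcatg
Mmp12, chr9:7347319-7347347: gacatcaacagTGAGTCAgatagaggatt
Mmp3, chr9:7445765-7445793: ggaagcaattaTGAGTCAgttttcgggtg
Mmp10, chr9:7502268-7502296: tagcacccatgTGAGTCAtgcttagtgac
Mmp7, chr9:7692016-7692044: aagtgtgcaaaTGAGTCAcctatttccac
The motif began 35 bases before the start in *Mmp13*, 44 in *Mmp12* (at the second of its 2 starts), 46 in *Mmp3*, and 63 in *Mmp10* and *Mmp7*. *Mmp13*, *Mmp12* and *Mmp3* with the motif had at least 3 reads in every tumor. *Mmp10* with it had 0 reads in NTC tumor 2, *Mmp1a* and *Mmp1b* with it had 8 and 4 reads over all tumors, and *Mmp7* with it had no read. *Mmp8* without it was highest in the same 3 tumors as *Mmp12*.

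Genes that act on these families were read from lists of regulators and substrates. Of 18 activators and regulators, 17 were tested and none was called over 10 tumors by edgeR's quasi-likelihood test. At an unadjusted p under 0.05, 0 were higher and 1 lower, where 3.99% and 4.85% of all rows passed. The lower one was *Bsg*, which encodes basigin, an inducer of MMP synthesis. *Bsg* had 420, 427, 511, 480 and 343 CPM in KO and 557, 658, 571, 649 and 593 CPM in NTC tumors 1 to 5, so every KO value was below every NTC value. Of all rows past the filter, 2.34% had no overlap between the groups. Within KO, *Bsg* followed the order of the summed melanoma cell markers (14351, 14973, 19339, 17054 and 11774 CPM in tumors 1 to 5). NTC tumor 1 had the lowest sum (11282 CPM) and 557 CPM of *Bsg*. The part of cell makeup in its level was not tested. On the log2 scale the difference between the groups was -0.47 (SE 0.11, unadjusted p = 0.0019, adjusted p = 0.217, edgeR) and -0.53 (adjusted p = 0.135) without NTC tumor 1. Without that tumor 7 regulators were higher and 1 lower at an unadjusted p under 0.05, where 12.0% and 8.10% of all rows passed, and none was called. Among the 7 was *Lrp1*, the endocytic receptor that clears MMPs and TIMPs (log2 fold change 1.39, adjusted p = 0.180). *Reck*, a membrane inhibitor of MMPs, had 8.49 to 12.3 CPM in KO and 9.03 to 12.0 CPM in NTC tumors.

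Of 16 matrix substrates, 13 were tested and none was called over 10 or 9 tumors by edgeR's test. At an unadjusted p under 0.05, 0 passed over 10 tumors (3.99% of rows higher, 4.85% lower) and 3 of 13 were higher over 9 (12.0% of rows), namely *Bgn*, *Col1a1* and *Col1a2*. *Col1a1*, a chain of type I collagen and also one of the fibroblast markers, had 519, 431, 184, 145 and 820 CPM in KO and 590, 9.16, 183, 46.0 and 136 CPM in NTC tumors 1 to 5.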

How the data were processed

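RNA-seq of 5 *Mir25* KO and 5 NTC tumors was deposited as 1 table of read counts per gene symbol and tumor. The authors made these counts with FastQC, Trimmomatic, HISAT2 and HTSeq on mm10, per the submitters' processing notes, which give no versions or strand setting. Rows for reads outside genes were left out of library sizes (17.5% to 42.9% of reads). Groups and replicate numbers came from the labels. Nothing else says how the tumors relate, so p-values measure the spread between these tumors.

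edgeR 4.0.16 (R 4.3.3) was run with TMM normalization, filterByExpr and the quasi-likelihood test over all rows, with Benjamini-Hochberg adjustment, and called at adjusted p under 0.05 and absolute log2 fold change above 1. DESeq2 1.42.0, the study's test, was an alternative, as were other normalization, filters, covariates, the replicate number as a block and each tumor left out. CPM are TMM-normalized, and per-kilobase levels and coordinates use GENCODE M21 (GRCm38), which may not be the annotation counted. Tests were run on simulated counts first. Depth was 11896643 to 28682130 reads on genes per tumor, and floors of 3 reads cover counting error only.

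Members and lists were chosen with earlier results of these data known. Members named with values were every TIMP, the 2 of highest level per kilobase in each role class, those with an unadjusted p under 0.05, those without overlap between groups and those called by any alternative. Others were named after their values were seen. Pandas 2.3.3, numpy 2.4.6 and matplotlib 3.10.9 (Python 3.11.15) made the summaries.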

Additional observations from a re-analysis of the deposited data

Results flagged for a closer look

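In 52 groups of 5 values (each named member in KO and in NTC, and the reads on genes), 4 values lay far from the other 4 of their group, where chance gives about 1 in 20 groups, and 3 of the 4 were in NTC tumor 1. *Mmp13* was at 133 CPM there, against 11.4 to 21.0 CPM in the other NTC tumors. *Mmp8* was at 46.2 CPM in the same tumor, against 0.813 to 1.90 CPM. That tumor had 11896643 reads on genes, against 24145795 to 28682130 in the other NTC tumors. In the KO group, *Adamts14* was at 36.2 CPM in tumor 1, against 20.5 to 23.2 CPM in the other 4.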

How the results depend on the processing

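RLE normalization moved no count by more than 1.5 times and turned no named member. Counts of genes called over all rows (1 higher, 2 lower) became 0 and 6 with at least 10 reads in every tumor, 24 and 72 with DESeq2, 4 and 5 with the leukocyte score, and 618 and 136 with DESeq2 without a filter over 9 tumors, while 4 were lower with no fold threshold or with robust dispersion. Members called stayed at 0, except 3 higher in that last DESeq2 fit, where *Mmp19* (2.16), *Mmp25* (1.70) and *Mmp27* (2.77) passed the threshold. Members higher at an unadjusted p under 0.05 numbered 3 without a filter (2.81% of all rows), 2 with DESeq2 (4.66%), 19 with DESeq2 without a filter over 9 tumors (7.86%) and 0 with either score. Those lower numbered 5 with the leukocyte score (*Adamts1*, *Timp3*, *Adamts5*, *Adamtsl2* and *Mmp10*, against 6.59% of all rows) and 4 with the fibroblast score, the same without *Timp3* (5.34% of rows).

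Leaving out each tumor in turn gave 1 to 2 genes called higher and 0 to 15 lower, 0 called members, 0 to 12 members higher and 2 to 2 lower at an unadjusted p under 0.05, and a member median of 0.041 to 0.66. NTC tumor 1 gave the 15, the 12 and the 0.66, KO tumor 5 the 0.041, and KO tumor 1, NTC tumor 2 and NTC tumor 4 the 0 higher members.
The log2 fold change crossed 0 in 10 named members, running from -0.023 to 0.12 in *Adamts4*, -0.21 to 1.92 in *Mmp12*, -0.063 to 1.72 in *Mmp13*, -0.0066 to 1.59 in *Mmp2*, -0.41 to 1.12 in *Mmp23*, -0.47 to 1.08 in *Mmp3*, -0.84 to 2.68 in *Mmp8*, -1.02 to 1.03 in *Mmp9*, -0.24 to 0.64 in *Timp1* and -0.041 to 0.54 in *Timp3*. Without a change of sign, *Adamts1* ran from -0.88 to -0.58, *Adamtsl2* from -1.43 to -0.95, *Adamts14* from 0.31 to 0.59, *Adamts12* from 0.35 to 0.71, *Adamts2* from 0.55 to 1.88, *Mmp19* from 0.18 to 2.11, *Mmp25* from 0.89 to 1.67 and *Mmp27* from 0.14 to 2.71.

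Signs turned as follows, and the cause was not tested. *Mmp8* was 0.026 without a filter. With the leukocyte score *Mmp12* was -0.19, *Mmp13* -0.078, *Mmp2* -0.19, *Mmp23* -0.53, *Mmp27* -0.19, *Timp1* -0.35, *Timp2* -0.11 and *Timp3* -0.31. With the fibroblast score *Mmp12* was -0.28, *Mmp13* -0.081, *Mmp2* -0.19, *Mmp23* -0.49, *Timp1* -0.36, *Timp2* -0.050 and *Timp3* -0.24. With DESeq2 without a filter over 9 tumors *Adamts4* was -0.0087, *Mmp3* 1.11, *Mmp8* 2.72 and *Mmp9* 1.05.

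Whether replicate numbers pair the tumors was not settled. Deviations of same-numbered KO and NTC tumors correlated at 0.17, -0.29, 0.08, 0.63 and 0.21 over 15821 rows, and tumors with different numbers were not compared. With the replicate block 0 genes were lower, 3 members were higher at an unadjusted p under 0.05 (5.05% of all rows), and *Mmp3* was 0.97, *Mmp8* 0.38 and *Mmp9* 0.24. Depth limits *Adamtsl3*, *Timp4* and the other members under the filter, where 3 reads are 0.0946 to 0.404 CPM.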
